A study of Mus musculus with 2 samples.

Results

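The genes described here are *Lin28a*, *Lin28b*, *Hmga1*, *Hmga2*, *Igf2bp1*, *Igf2bp2*, *Igf2bp3* and *Arid3a*, which were chosen by name and make up 8 of the 23154 genes in the deposited tables. All 8 had their own values in both libraries. They were read in mouse yolk sac cells of E10.0 embryos sorted as PK44, that is CD41-CD43-CD45-CD31+CD201+Kit+CD44+, a gate used to enrich hemogenic endothelial cells. Single-cell RNA was read by modified STRT-seq, a method that tags the 3' ends of transcripts with a cell barcode and a unique molecular identifier, in 2 libraries of 43 and 44 cells, here called replicates 1 and 2. There is 1 condition, and the labels give neither strain nor genotype, nor the number of embryos behind a library, while the study's methods name C57BL/6 as the background of its mice. The study asked whether such yolk sac cells pass from an endothelial to a hematopoietic state as those of the aorta region do, and the aorta region is not part of these data.

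LIN28 proteins bind the precursors of let-7 microRNAs and keep them from maturing, and mature let-7 represses mRNAs that carry matching sites in their 3' untranslated regions (3' UTRs). Messages of the *Lin28*, *Hmga2*, *Igf2bp* and *Arid3a* genes are known let-7 targets, so LIN28 and let-7 oppose each other. Much of the set is known for high activity in fetal tissues and lower activity in adult ones, and in blood *Lin28b* and *Hmga2* are known from fetal as opposed to adult stem and progenitor cells.

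Replicate 1 held 8932527 counts, with 13218 to 702028 per cell and a median of 141577. Replicate 2 held 12706360 counts, with 51620 to 956593 per cell and a median of 238898. No cell number occurred in both libraries (0 shared). All 8 endothelial markers had counts, as the CD31 of the gate asks for, and summed to 2387 CPM (counts scaled to the same total in every library) in replicate 1 and 4150.3 in replicate 2. *Cldn5*, an endothelial tight junction gene, led them by mean level at 389 and 961 CPM, though *Cdh5* (463 CPM) and *Kdr* (393 CPM) were above it in replicate 1. Here and below, genes said to lead a list have its highest means over both libraries, not always the highest level in each. The RNA followed the gate for most of its genes but not for *Itga2b*, the gene of CD41. Of the genes sorted against, *Spn* (CD43) and *Ptprc* (CD45) were counted in 9 and 3 of 87 cells, but *Itga2b* in 56. Of those sorted for, *Pecam1* (CD31), *Cd44*, *Procr* (CD201) and *Kit* were counted in 86, 85, 80 and 66 cells. Of 8 macrophage markers 5 were at 0 (*C1qa*, *C1qb*, *C1qc*, *Cx3cr1* and *Adgre1*), and the list summed to 149.8 and 204 CPM, mostly from *Mrc1* (125 and 162 CPM). The erythroid markers summed to 13.3 and 22.4 CPM, led by *Hbb-y*, with *Hba-a1* and *Hba-a2* at 0. The 5 megakaryocyte markers summed to 69.9 and 85.3 CPM, led by *Itga2b*, with *Gp1bb* and *Ppbp* at 0. The 8 visceral endoderm markers summed to 0 and 18.8 CPM, led by *Apoa1*, with *Apob*, *Rbp4*, *Cubn* and *Amn* at 0. The 6 mesothelial markers summed to 118 and 42.7 CPM, led by *Krt18*, with *Upk3b*, *Msln* and *Krt19* at 0. The 7 mesenchymal markers all had counts and summed to 898 and 342 CPM. By mean level they were led by *Col1a2* (351 and 100.3 CPM), though *Col1a1* was above it in replicate 2 (133 CPM). A threshold of 100 counts in every one of *Col1a1*, *Col1a2*, *Col3a1* and *Lum* is met by 3 cells, 2 of replicate 1 and 1 of replicate 2. They are called collagen cells below, and fits were also made without them.

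A sequence feature that these genes share is a match to the let-7 seed. The mature let-7 RNAs of the RefSeq table (GRCm38.p6) number 10, and 9 of them share the seed GAGGUAG at bases 2 to 8. A pair of them is shown because they differ outside the seed, which is in capitals.
mmu-let-7a-5p: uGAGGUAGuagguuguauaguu
mmu-let-7g-5p: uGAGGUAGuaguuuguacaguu
The motif searched was CTACCTC, the reverse complement of the seed, on the transcript strand of the longest annotated 3' UTR of each protein-coding gene (GENCODE M21, GRCm38). It occurred in the 3' UTR of 8 of 8 of these genes and of 1898 of 21045 genes in all (9.02%). Most of these genes, chosen by name, are known let-7 targets, so their share follows in part from the choice. *Hmga2*, *Igf2bp1* and *Lin28b* had 4 matches each, a number that 12 genes in the annotation reached or passed. *Lin28a* and *Arid3a* had 2 matches, and *Hmga1*, *Igf2bp2* and *Igf2bp3* had 1. *Runx1* and *Mki67*, the genes used below to order the cells, had 0. The match is a description of letters in the annotation, and whether the cells use these 3' UTRs or contain let-7 was not measured.

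The 4 matches of *Hmga2*, the most abundant of these genes, are shown with the bases around them, the motif in capitals, and below them the first match of each of the others, as results on those genes follow.
Hmga2 site 1: gccgacattcaatttCTACCTCagcatcag
Hmga2 site 2: ccccactcctcaataCTACCTCtgaatgct
Hmga2 site 3: ctgatttgcaaggaaCTACCTCcacacttc
Hmga2 site 4: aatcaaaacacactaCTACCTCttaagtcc
Lin28b site 1: acccgggcgggaagtCTACCTCatgcaagc
Igf2bp1 site 1: gctgtgcgaagtaaaCTACCTCaaggtgtg
Igf2bp2 site 1: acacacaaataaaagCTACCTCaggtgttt
Igf2bp3 site 1: tgcatttttactcaaCTACCTCaggtattc
Arid3a site 1: aaggcaagtttctttCTACCTCaggtcttt
Lin28a site 1: gcacagcctgttgaaCTACCTCatttttgc
Hmga1 site 1: tcctctgttcacaaaCTACCTCtggacggt
The motifs of *Hmga2* lie on the minus strand of GRCm38 at chr10:120364225-120364231, chr10:120362988-120362994, chr10:120362550-120362556 and chr10:120361692-120361698. The others lie at chr10:45381023-45381029 (minus, *Lin28b*), chr11:95961779-95961785 (minus, *Igf2bp1*), chr16:22059474-22059480 (minus, *Igf2bp2*), chr6:49086788-49086794 (minus, *Igf2bp3*), chr10:79953910-79953916 (plus, *Arid3a*), chr4:134005190-134005196 (minus, *Lin28a*) and chr17:27563292-27563298 (plus, *Hmga1*). Long 3' UTRs hold the motif more often. The 3' UTRs of these genes had a median length of 2894.5 bases against 960.0 for all genes. Among genes whose 3' UTR is at most 20% shorter or 25% longer, 16.1% held the motif at the length of *Hmga2* (3014 bases), 24.4% at that of *Lin28b* (4445 bases), 34.4% at that of *Igf2bp1* (6337 bases) and 8.23% at that of *Hmga1* (1183 bases).

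**Figure D1:**
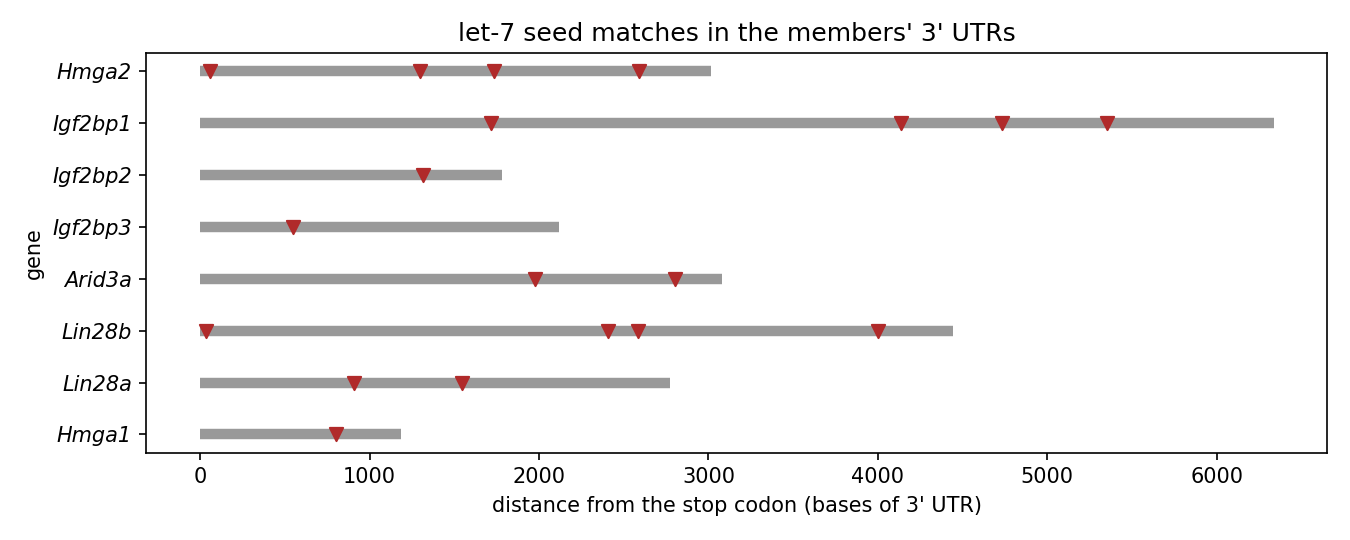
Annotated 3' UTRs of the 8 genes (grey bars, bases from the stop codon) with each occurrence of CTACCTC as a red triangle. *Hmga2*, *Igf2bp1* and *Lin28b* carry 4 occurrences each, and the first of *Hmga2* and of *Lin28b* start at bases 58 and 36.

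*Lin28b* (chr10:45376620-45486395, minus strand) encodes the LIN28 protein known from fetal blood progenitors. Its level, in CPM of the summed counts of a library, was 70.8 in replicate 1 and 39.7 in replicate 2, a mean of 55.2 ± 21.98 (SD, n = 2 libraries) from 1136 counts. As the method counts 3' ends, levels are not divided by transcript length. A count was found in 48 of 87 cells (55.2%, exact Clopper-Pearson 95% interval 44.1% to 65.9%, which like the others covers counting error only). In single cells the level ran from 0 to 491 CPM with a median of 2.84 in replicate 1, and from 0 to 202 CPM with a median of 4.06 in replicate 2. The counts were concentrated, with 50% of them in 4 cells of replicate 1 and in 3 cells of replicate 2. Cells without a count were shallower, at a median of 65757 counts against 273118 for cells with one in replicate 1, and 208354 against 251485 in replicate 2. With every cell thinned to 20000 counts, which leaves out 1 cell, a count remained in 30.2% of 86 cells.

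*Lin28a* (chr4:134003330-134018841, minus strand), the paralog of pluripotent cells and early embryos, was close to undetected. It had 39 counts in replicate 1 (4.37 CPM) and 112 in replicate 2 (8.81 CPM), and a count in 15 of 87 cells (17.2%, 9.98% to 26.8%). A single cell held 71.8% of its counts in replicate 1, and another held 63.4% in replicate 2, so its mean of 6.59 ± 3.15 CPM (SD, n = 2 libraries) describes few cells. Only 3 cells had 10 or more counts.

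*Hmga2* (chr10:120361275-120476469, minus strand) encodes an AT-hook protein that binds the minor groove of DNA in chromatin and favours self-renewal of fetal stem cells. It was the highest of the 8 genes in both libraries, at 976 CPM in replicate 1 and 547 in replicate 2, a mean of 762 ± 304 CPM (SD, n = 2 libraries) from 15672 counts. Only 132 genes in replicate 1 and 270 in replicate 2 had a higher level. It was the gene of the 8 with a count in 87 of 87 cells (95.8% to 100%), and 79 cells had 10 or more counts. In single cells it ran from 31.6 to 3144 CPM with a median of 779 in replicate 1, and from 37.2 to 2029 CPM with a median of 419.8 in replicate 2. The ranges of the libraries overlapped over most of their length. The 3 collagen cells had 58.6, 156 and 284 CPM, where the median of the other 84 cells was 563 CPM. Without them the levels were 1018 and 551 CPM. A pair of noncoding genes lies within *Hmga2* on the opposite strand, and the counting is not stated to use strand. They start at chr10:120364157 and chr10:120389523, away from the annotated 3' end of *Hmga2* at chr10:120361275, where this method reads. Any reads of theirs inside the overlap cannot be told apart from those of *Hmga2*. The processed copy of *Hmga2*, *Hmga2-ps1*, had 33 counts, all in 1 cell.

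*Hmga1* (chr17:27556497-27563674, plus strand), its paralog in proliferating embryonic cells, had 0 counts in replicate 1 and 1 count in replicate 2. These values are uncertain and say little about the gene. Of the 451 windows of 50 bases in the last 500 bases of its transcript, where this method reads, 401 (88.9%) are not unique to it among annotated transcripts, and the authors counted uniquely mapped reads. The 3' end also overlaps *AI413582* on the opposite strand, a gene with 60 and 351 counts. The other 7 genes shared 0 such windows with another gene.

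The *Igf2bp* genes encode RNA-binding proteins of cytoplasmic granules that stabilise and localise RNAs such as *Igf2* and *H19*, and all 3 were detected. *Igf2bp1* (chr11:95957163-96005940, minus strand) had 269 CPM in replicate 1 and 263 in replicate 2, with a mean and SD over the 2 libraries of 266 ± 3.996 CPM, and was counted in 80 of 87 cells (92.0%, 84.1% to 96.7%). *Igf2bp2* (chr16:22059009-22163299, minus strand) had 201 and 127 CPM (164 ± 51.9) and a count in 76 cells (87.4%). *Igf2bp3* (chr6:49085223-49214957, minus strand) had 126 and 140.2 CPM (133 ± 10.1) and a count in 67 cells (77.0%). The first of them was thus the steadiest between libraries and found in the most cells. Its median over cells was 189 and 222 CPM, with 1508 and 1277 CPM as the highest, against medians of 38.3 and 77.7 CPM for *Igf2bp2* and 19.8 and 103 CPM for *Igf2bp3*. The last 1529 bases of *Igf2bp3* overlap *Malsu1* on the opposite strand, which had 192 and 747 counts, so that *Igf2bp3* is uncertain to that extent. Across cells the pair had a Spearman's rho of -0.093 in replicate 1 and -0.34 in replicate 2.

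*Arid3a* (chr10:79927043-79955018, plus strand), a DNA-binding factor of the ARID family known from embryonic blood formation and from fetal B cells downstream of *Lin28b*, had 152 CPM in replicate 1 and 70.3 in replicate 2, a mean of 111 ± 57.6 CPM (SD, n = 2 libraries). A count was found in 64 of 87 cells (73.6%, 63.0% to 82.4%), and the level in single cells reached 1550.2 and 682 CPM over medians of 48.7 and 17.2 CPM. Its nearest relatives, named after their values had been seen, are *Arid3b*, with 17.7 and 53.8 CPM, and *Arid3c*, with 0 counts (0 of 87 cells, an exact interval up to 4.15%).

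In order of mean level *Hmga2* stood first and *Igf2bp1* next in both libraries, followed by *Igf2bp2*, *Igf2bp3* and *Arid3a*, then *Lin28b*, *Lin28a* and *Hmga1*. The order of the middle group depended on the library, as *Igf2bp3* was the lowest of the 3 in replicate 1 and the highest in replicate 2. For comparison, *Runx1*, the master factor of hematopoietic emergence (chr16:92601466-92826149, minus strand), had 300.4 and 136 CPM, and *Mki67*, a marker of cycling cells (chr7:135689784-135716361, minus strand), had 564 and 359 CPM. The log2 ratio of replicate 2 over replicate 1 was -1.11 for *Arid3a*, -0.84 for *Hmga2*, -0.83 for *Lin28b* and 0.15 for *Igf2bp3*. All 7 genes with a ratio lay inside the 5th to 95th percentile, -1.58 to 1.78, of 8695 genes with a mean of at least 10 CPM, a filter that *Lin28a* itself did not pass.

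**Figure D2:**
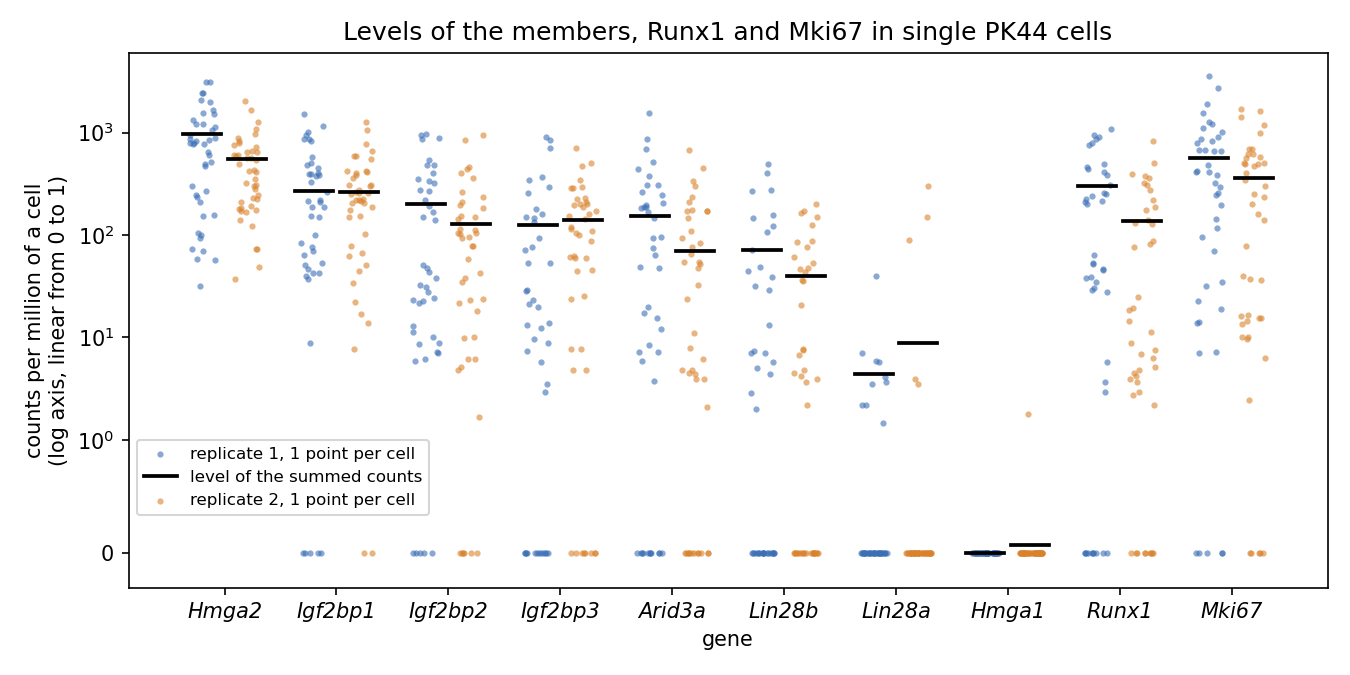
Level of each gene in each of 87 cells (points, CPM of a cell on a log axis that is linear from 0 to 1) and in the summed counts of replicate 1 and replicate 2 (black bars). *Hmga2* is above 0 in every cell, while *Lin28b* runs from 0 to 491 CPM.

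**Figure D3:**
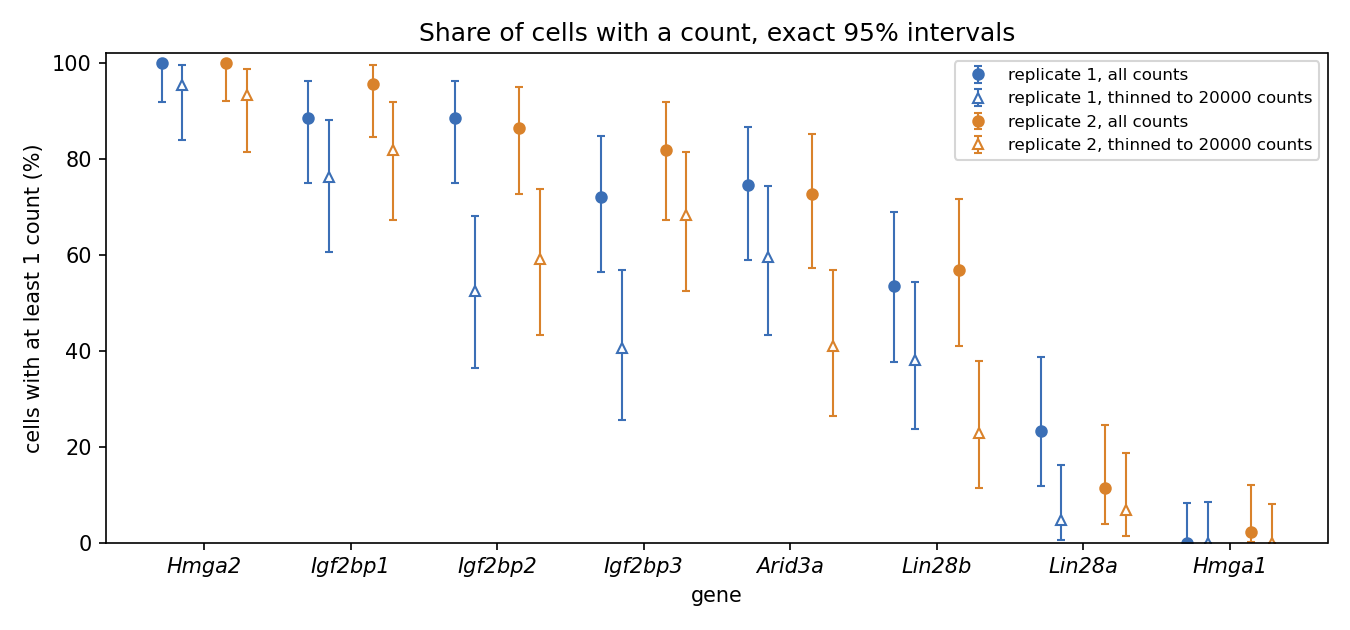
Percentage of cells with at least 1 count in replicates 1 and 2, from all counts (circles) and from 20000 counts per cell (triangles), with exact 95% intervals as bars. At the equal depth *Hmga2* stays at 95.2% and 93.2%, whereas *Lin28b* goes from 53.5% to 38.1% and from 56.8% to 22.7%.

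Most cells carried several of these genes at once. Of the 7 genes other than *Hmga1*, a cell had a count of 5 at the median in both libraries. All 7 were found together in 9 cells of replicate 1 and 2 cells of replicate 2. At 10 or more counts the medians were 3 and 4 of 7, and 0 cells had all 7. These numbers were not recounted at equal depth. Depth had a rho with the level of *Lin28b* of 0.53 in replicate 1 and 0.17 in replicate 2, and with that of *Igf2bp1* of 0.015 and -0.0043.

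Across cells the genes did not follow one another closely. Over the 21 pairs of the 7 genes, the median Spearman's rho of CPM was 0.15 over the 43 cells of replicate 1 and -0.028 over the 44 cells of replicate 2. The cells of each value share a library and differ in depth. The sign was positive in both libraries for 8 pairs, negative in both for 2 and opposite for 11, and 0 pairs reached 0.3 in both. The highest in replicate 1, *Lin28b* with *Igf2bp3* at 0.42, was 0.13 in replicate 2, and *Lin28b* with *Igf2bp2* went from 0.40 to -0.17. *Lin28b* with *Hmga2* had 0.15 and 0.27, and 0.0021 and 0.25 when the depth of the cells was held constant.

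**Figure D4:**
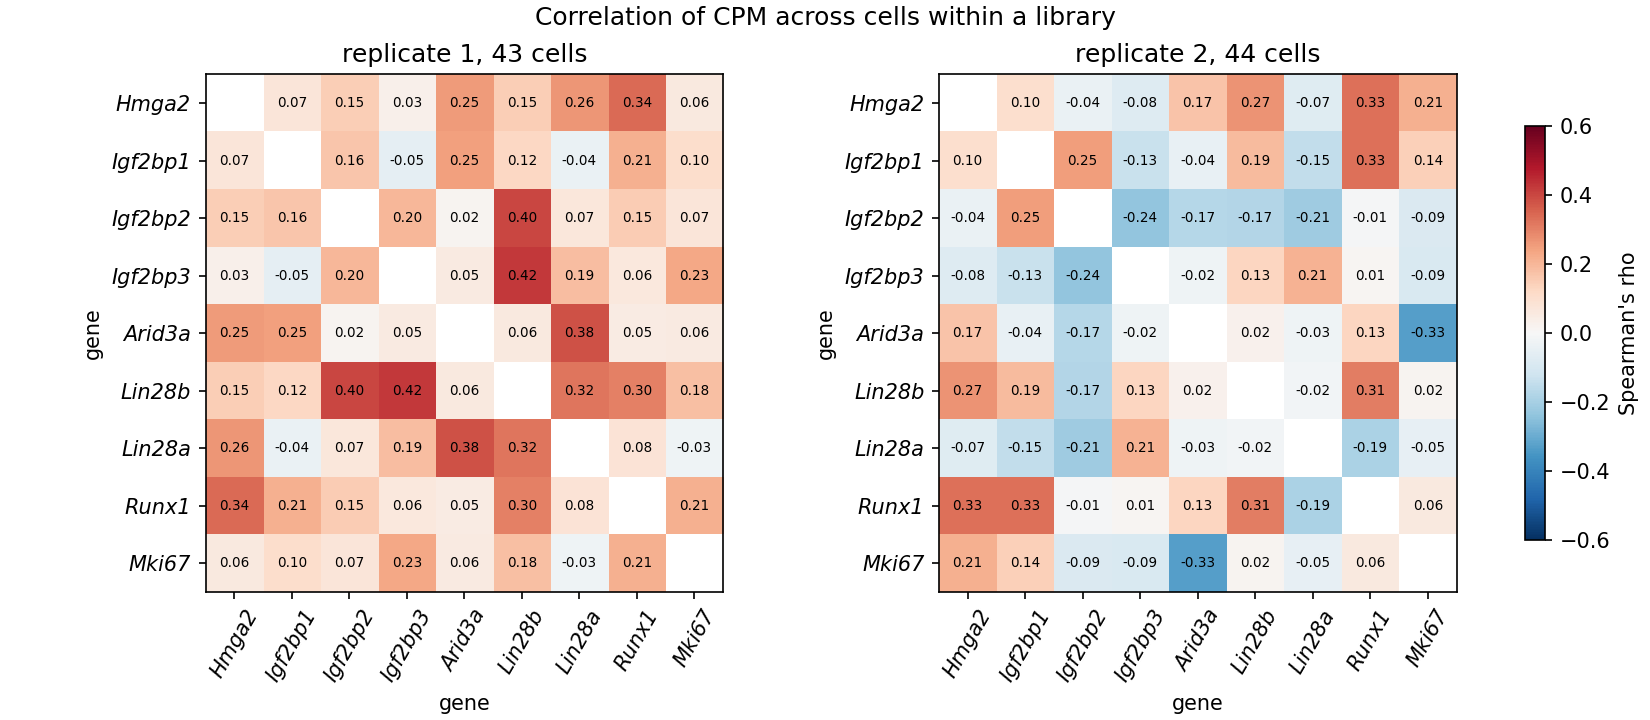
Spearman's rho of CPM across the cells of replicate 1 (left) and replicate 2 (right) for 7 of the 8 genes, *Runx1* and *Mki67*, with red for positive and blue for negative values. Most pairs among the 7 genes are pale or differ in sign between libraries, whereas *Runx1* with *Hmga2* is 0.34 and 0.33.

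With *Runx1*, 3 of the 7 genes had a rho above 0.2 in both libraries. *Hmga2* had 0.34 and 0.33, *Lin28b* 0.30 and 0.31, and *Igf2bp1* 0.21 and 0.33, over 43 and 44 cells. They were set against 3660 genes with a count in at least 50% of the cells of each library. The median rho of those genes with *Runx1* was 0.12 and 0.11. In single libraries *Hmga2* stood at percentiles 90.7 and 85.2, *Lin28b* at 85.8 and 82.5 and *Igf2bp1* at 70.8 and 85.3. A rho of 0.3 or more in both libraries was reached by 150 of the 3660 genes (4.10%), *Hmga2* and *Lin28b* among them. *Runx1* itself had a rho with depth of 0.34 and 0.35. With depth held constant the values were 0.27 and 0.29 for *Hmga2*, 0.15 and 0.27 for *Lin28b* and 0.22 and 0.35 for *Igf2bp1*. With cells thinned to 20000 counts they were 0.26 and 0.17, 0.13 and 0.12, and 0.17 and 0.31, so that 0 of 7 genes passed 0.2 in both, and without the shallowest 25% of cells 1 did, *Lin28b*. With *Mki67*, 0 of the 7 genes passed 0.2 in both libraries. *Arid3a* had 0.056 and -0.33, the latter at percentile 1.99 of the 3660 genes, and *Igf2bp3* had 0.23 and -0.093. *Runx1* and *Mki67* had 0.21 and 0.057 with each other.

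The genes most like each of the 6 widely detected ones were sought by the lower of the rho values of both libraries, over 3660 genes in 43 and 44 cells. For *Lin28b* they were *Las1l* (0.42), *Wdr18* (0.41) and *Bbx* (0.40), and for *Hmga2* *Alyref* (0.42), *Hnrnpab* (0.41) and *Bptf* (0.41). *Las1l* and *Wdr18* are known from ribosome maturation, and *Alyref* and *Hnrnpab* from mRNA export and packaging. For *Igf2bp1* they were *Set* (0.45), *Supt5* (0.39) and *Ubn2* (0.39), for *Igf2bp2* they included *Rrp12* (0.35) and *Rab14* (0.32), for *Igf2bp3* *Dctn6* (0.44), *Dnajc15* (0.39) and *Msmo1* (0.35), and for *Arid3a* *Tdrd3* (0.39), *Canx* (0.37) and *Bag6* (0.36). The leading gene for *Mki67*, by the same measure, was *Top2a* at 0.68, and for *Runx1* it was *Kit* at 0.50. None of these 6 genes was among the 3 nearest to another. A lower rho of 0.3 or more was reached by 90 of 3660 genes for *Lin28b*, 23 for *Hmga2* and 4 for *Igf2bp2*.

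To ask whether these genes differ with the entry into the hematopoietic programme, cells were called Runx1-high where their CPM of *Runx1* lay above the median of their library (52.2 CPM in replicate 1, 10.03 CPM in replicate 2) and Runx1-low otherwise. This gave 21 and 22 cells in replicate 1 and 22 and 22 in replicate 2, and counts were summed per library and class. The classes are ranges of one continuous measure, not cell types, as 11 and 9 cells lay within 2-fold of the median. The high cells were also deeper. Their median depth was 260240 counts in replicate 1, where that of the low cells was 95376, and 271734 in replicate 2, where that of the low cells was 213444. Depth was addressed by fits with cells paired by depth and with cells thinned to 20000 counts. The thinned counts also redrew the classes, with 19 high and 25 low cells in replicate 2, the latter all without a count of *Runx1*.

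*Hmga2* had 997 CPM in Runx1-high and 974.6 CPM in Runx1-low cells of replicate 1, and 618 and 425 CPM in replicate 2. *Lin28b* had 73.0 and 69.3 CPM in replicate 1, and 49.99 and 23.1 CPM in replicate 2. Both were higher in the high cells of both libraries, by little in replicate 1, and for both the classes overlapped across libraries. The log2 fold change of high over low cells was 0.21 for *Hmga2* (standard error 0.46, 95% interval -0.83 to 1.246) and 0.42 for *Lin28b* (0.77, -1.31 to 2.14). With cells paired by depth these were 0.26 and 0.32. With cells thinned to 20000 counts the change between Runx1-high and Runx1-low cells was 0.36 for *Hmga2* and 1.42 for *Lin28b* (standard error 0.81). With all counts *Hmga2* had 0.67 (standard error 0.47) between the 14 highest and 14 lowest cells and 0.92 (0.50) by presence of a count of *Runx1*. *Lin28b* had, with all counts, 1.17 between the 14 highest and 14 lowest cells and 1.04 with equal weight for every cell. Between cells with and without a count of *Runx1* it had 0.011 (standard error 1.05), so that its size depends on how cells are split and weighted. A count of *Lin28b* was found in 14 of 21 high against 9 of 22 low cells of replicate 1, and in 13 of 22 against 12 of 22 of replicate 2. *Igf2bp3* was also higher in both, with 133 against 118 CPM and 142 against 134 CPM (log2 0.12, standard error 0.47, -0.93 to 1.17). That direction is not stable, since with equal weight for every cell *Igf2bp3* had 113 against 122 CPM and 129 against 145 CPM, and its log2 change was -0.013 with cells thinned to 20000 counts and -0.99 between cells with and without a count of *Runx1*.

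In summed counts *Igf2bp2* and *Arid3a* were lower in the high cells of both libraries. *Igf2bp2* had 198 against 212 CPM in replicate 1 and 92.3 against 176 CPM in replicate 2, a log2 fold change of -0.42 (standard error 0.51, 95% interval -1.55 to 0.72). *Arid3a* had 147 against 167 CPM and 57.3 against 87.7 CPM (-0.32, standard error 0.61, -1.70 to 1.05). Medians over cells went the other way in both libraries. They were 47.6 against 29.5 and 77.7 against 69.9 CPM for *Igf2bp2*, and 94.0 against 33.8 and 28.0 against 7.90 CPM for *Arid3a*. With equal weight for every cell *Igf2bp2* had 214 against 180 and 120 against 161 CPM, and *Arid3a* 153 against 189 and 79.5 against 92.9 CPM. *Arid3a* had -0.65 with cells paired by depth, and the change was -0.13 after thinning for *Arid3a* between Runx1-high and Runx1-low cells. With the block added it turned to 0.015 after thinning and to 0.11 by presence of a count of *Runx1*. *Igf2bp1* went opposite ways, with 254 against 307 CPM and 271 against 243 CPM (-0.07, standard error 0.40, -0.97 to 0.83). With equal weight for every cell it was higher in both, with 356 against 287 CPM and 346 against 227 CPM, and after thinning its log2 change was 0.39. *Lin28a* had -1.88 (standard error 2.42), and the libraries went opposite ways, with 6.07 against 1.31 CPM in replicate 1 and 0.130 against 21.5 CPM in replicate 2, where a single cell gave most of its counts.

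None of these differences passed a test. *Hmga1* missed the low-count filter, and of the 7 genes tested 0 passed an adjusted p of 0.05 by edgeR (quasi-likelihood test, adjusted after Benjamini-Hochberg) (each adjusted p 0.9995), against 0.00941% of the 10629 genes tested (1 gene, *Col1a1*). In the fit with a library block 0 of 7 passed, against 1.56% (166 genes, 40 higher and 126 lower), the lowest adjusted p by edgeR (quasi-likelihood test, adjusted after Benjamini-Hochberg) being 0.912, for *Igf2bp2* (0.675 to 1.00 over all its fits). Unadjusted p-values were under 0.05 for 0 of 7 in both fits, and for 588 of all 10629 genes without the block and 921 with it, against which the counts for lists below are to be read. DESeq2 called 0 of 7 and 137 genes in all. Over the 61 planned and 33 added alternative fits of single genes 0 passed, with adjusted p-values by edgeR or DESeq2 from 0.578 up to 1.00. That these genes missed the threshold does not show equal levels, and the intervals above, from the fit without the block, include a doubling for *Hmga2* and *Lin28b*. With the block the interval in this split was -0.28 to 0.85 for *Hmga2*, short of a doubling, and -1.02 to 2.21 for *Lin28b*. Block fits of other splits, added after the data had been seen, gave values for *Hmga2* on both sides of the 0.29 of this fit. They were 0.73 (standard error 0.35) for the 14 highest and lowest cells, 0.90 (0.42) by presence of a count and 0.40 (0.26) with cells paired by depth. After thinning the value was 0.26 (0.27), and without the collagen cells it was 0.21 (0.30). Of the 7, 3 were higher and 2 lower in both libraries, while 28.8% and 26.3% of all genes tested were. The directions of *Igf2bp2* and *Igf2bp1* also turned when cells were paired by depth, to 0.28 and 0.17.

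The cells were ordered by *Mki67* in the same way, at medians of 323 and 181 CPM, with 10 and 7 cells within 2-fold of them, to ask whether the genes go with proliferation. Again 21 and 22 cells of replicate 1 and 22 and 22 of replicate 2 were compared, and again the high cells were deeper (medians of 245523 against 90600 and 264754 against 207920 counts). The splits overlapped in part, with 13 and 12 cells high in both *Runx1* and *Mki67*. *Arid3a* was lower in the high cells of both libraries, with 137 CPM in Mki67-high against 179 CPM in Mki67-low cells of replicate 1 and 39.7 against 116 CPM in replicate 2, a log2 fold change of -0.74 (standard error 0.64, 95% interval -2.20 to 0.73), and -0.46 with cells paired by depth. In summed counts *Lin28b* was lower in both as well, with 51.6 against 100.5 CPM and 36.3 against 43.7 CPM (-0.71, standard error 0.67, -2.26 to 0.83). It had -0.55 with cells paired by depth. More high than low cells had a count of it, 14 of 21 against 9 of 22 in replicate 1 and 13 of 22 against 12 of 22 in replicate 2. The rho of *Lin28b* with *Mki67* was 0.18 and 0.015, and with depth held constant 0.032 and -0.0043. With equal weight for every cell *Lin28b* stayed lower in the high cells of both libraries, with 44.2 against 62.2 CPM and 32.3 against 33.7 CPM. *Hmga2* was higher in both by little, with 1015 against 962 CPM and 580.5 against 476 CPM (0.15, standard error 0.44, -0.86 to 1.16), and so was *Igf2bp2* (0.22, standard error 0.49). *Igf2bp3* was lower in both by little (-0.09, standard error 0.43), and *Igf2bp1* (-0.17, standard error 0.38) and *Lin28a* (-0.75, standard error 2.07) went opposite ways in the libraries. Several of these directions turned in other fits. *Hmga2* had -0.079 with cells paired by depth, -0.17 between the 14 highest and 14 lowest cells, -0.29 between cells with and without a count of *Mki67* and -0.0016 after thinning. With cells paired by depth *Igf2bp1* turned to 0.050, *Igf2bp3* to 0.12 and *Lin28a* to 0.58. *Igf2bp2* turned to -0.22 between the 14 highest and 14 lowest cells and to -1.13 by presence of a count, the split in which *Lin28b* turned to 2.45.

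By edgeR (quasi-likelihood test, adjusted after Benjamini-Hochberg) 0 of the 7 genes passed (each adjusted p 0.9998), against 0% of the 10650 genes tested, of which 257 were under 0.05 before adjustment (463 with the block). For the 7 genes that number was 0 without the block and 1 with it, and DESeq2 called 0 of 7 and 10 genes in all. In the fit with a library block 0 of 7 passed, against 0.0376% (4 genes). In that fit *Arid3a* had a log2 fold change of -0.96 (standard error 0.47, 95% interval -1.92 to -0.00046, unadjusted p 0.0499 by edgeR's quasi-likelihood test, adjusted p 0.9999 with Benjamini-Hochberg adjustment). Over all its fits the adjusted p of *Arid3a* ran from 0.621 to 1.00. Of the 7 genes 2 were higher and 3 lower in both libraries, where 25.5% and 24.4% of all genes tested were. The 4 genes called with the block were *Top2a*, which the list of proliferation genes holds, and *Cenpe*, *Prc1* and *Malat1*, named after their values were seen. *Top2a*, a topoisomerase of dividing cells, had 1160.0 against 371 CPM and 896 against 221 CPM and rose by a log2 fold change of 1.83 (standard error 0.22, adjusted p 0.000102 by edgeR (quasi-likelihood test, adjusted after Benjamini-Hochberg), 2.53e-13 to 1.00 over all fits). *Cenpe* and *Prc1*, genes of mitosis, rose by 2.15 and 2.35, and *Malat1*, a nuclear noncoding RNA, fell by 0.37 on the log2 scale. With cells paired by depth none of the 4 passed, while the log2 fold changes were 1.15 for *Top2a*, 1.40 for *Prc1*, 0.77 for *Cenpe* and -0.18 for *Malat1*. That split also mixes levels of *Mki67*, as its low class reached 794 CPM in replicate 1 and 617 CPM in replicate 2.

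**Figure D5:**
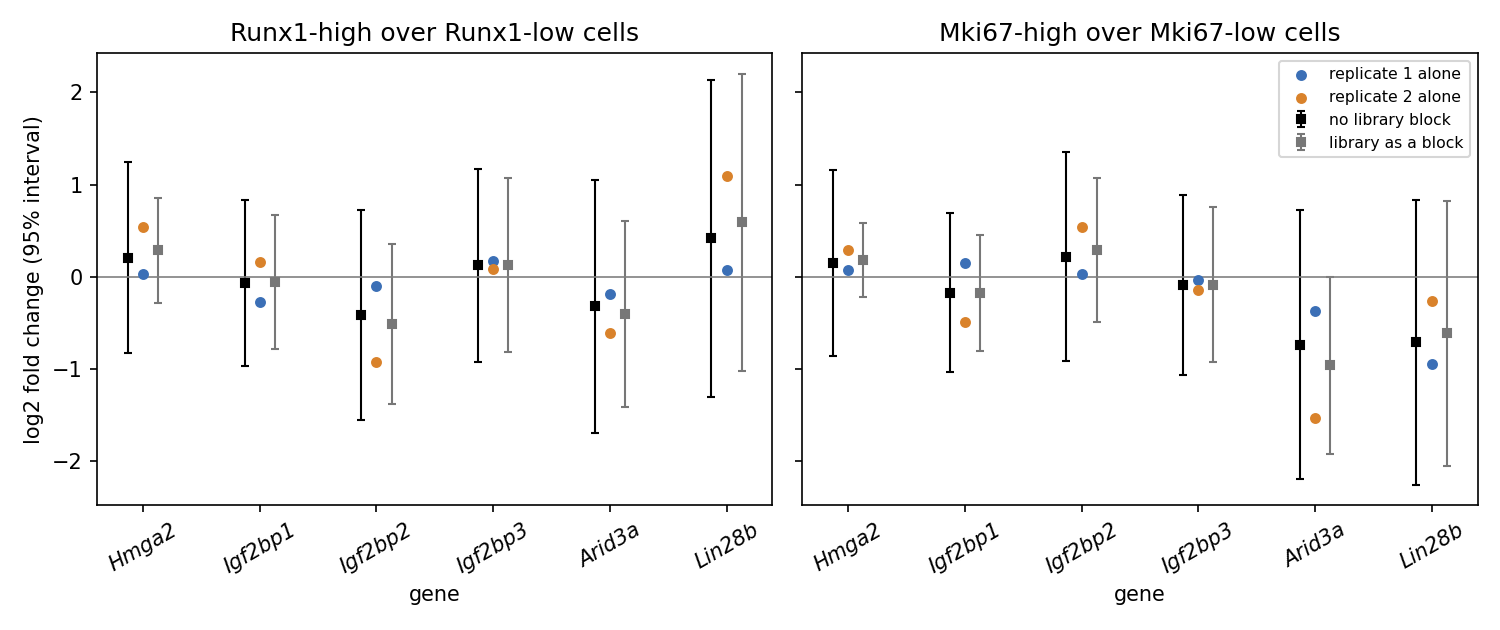
Log2 fold change of Runx1-high over Runx1-low cells (left) and Mki67-high over Mki67-low cells (right) for the 6 widely detected genes, from the fit without a library block (black) and with it (grey), with 95% intervals as bars, and in each library alone (coloured points). All intervals include 0 apart from that of *Arid3a* with *Mki67* and the block, which ends at -0.00046.

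The machinery that LIN28 and let-7 act through was expressed unevenly. The 21 genes of let-7 and small RNA processing summed to 2164 and 2188 CPM, led by *Ddx5*, a helicase of the microprocessor (804 and 922 CPM), *Tnrc6a*, a silencing partner of Argonaute proteins (213 and 224 CPM), and *Ddx17* (149 and 138 CPM), while *Ago4*, named after its values were seen, had a count in 4 of 87 cells. Of the 21, 0 passed between Runx1-high and Runx1-low cells with or without the block, 0 and 2 reached an unadjusted p under 0.05, and by DESeq2 0 passed. Their median log2 fold change was -0.02, against -0.01 for all genes tested. Of 20 tested between the Mki67 classes 0 passed in edgeR and in DESeq2, with 0 at an unadjusted p under 0.05 in both edgeR fits (median -0.14, against -0.01 for all genes).

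Other known let-7 targets, 19 genes of which 11 hold the motif in their 3' UTR, summed to 1932 and 1565 CPM and were led by *Ccnd2*, *Nras* and *Cdc34* (362 and 226, 255 and 178, and 186 and 206 CPM). Of 16 tested between the Runx1 classes 0 passed without the block (1 at an unadjusted p under 0.05), and *Mycn* alone rose with it, the 1 gene that DESeq2 called as well. *Mycn*, a growth-promoting transcription factor of embryonic tissues, had 157 against 32.5 CPM in replicate 1 and 110.0 against 9.12 CPM in replicate 2. Its log2 fold change was 2.92 (standard error 0.71) with the block, at an adjusted p of 0.00576 by edgeR (quasi-likelihood test, adjusted after Benjamini-Hochberg), which ran from 0.00576 to 1.00 over all its fits. With cells paired by depth it was 0.96 (standard error 0.56, adjusted p 0.999 by the same edgeR quasi-likelihood test and Benjamini-Hochberg adjustment). The median of the 16 was 0.03 without the block. Of 17 tested between the Mki67 classes 0 passed by edgeR with or without the block or by DESeq2, with 0 and 1 at an unadjusted p under 0.05 in the edgeR fits, and a median of -0.04.

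The RNAs that IGF2BP proteins are known to bind and their partners in granules, 15 genes, summed to 15907 and 19111 CPM. *Actb* had 4228 and 5487 CPM, *Igf2*, the fetal growth factor, 3146 and 5124 CPM, and *H19*, the noncoding RNA next to it, 2929.5 and 4663 CPM. *Igf2* and *H19* had a count in 87 of 87 cells. In Runx1-high against Runx1-low cells *Igf2* had 2451 against 4582 CPM in replicate 1 and 2998 against 8149 CPM in replicate 2, and *H19* had 2245 against 4337 CPM and 2892 against 7171 CPM, so that both were lower in the high cells of both libraries. Of the 15 genes 0 passed without the block (2 at an unadjusted p under 0.05), and with it these 2 fell, *Igf2* by 1.17 (standard error 0.22, adjusted p 2.58e-05) and *H19* by 1.13 (standard error 0.22, adjusted p 8.44e-05) on the log2 scale by edgeR (quasi-likelihood test, adjusted after Benjamini-Hochberg). Over all fits those adjusted p-values ran up to 1.00 for both, and DESeq2 called *Igf2* but not *H19*. With cells paired by depth the changes were -0.36 (standard error 0.35) and -0.27 (0.34), and neither passed. The 3 collagen cells were all in the Runx1-low class, with 3.66, 5.16 and 39.0 CPM of *Runx1*. Their part in the lower *Igf2* and *H19* of Runx1-high cells was not measured alone. The median of the 15 was -0.09. Between the Mki67 classes 0 of 15 passed by edgeR with or without the block or by DESeq2, with 0 and 3 at an unadjusted p under 0.05 in the edgeR fits and a median of 0.06. *Igf2bp1*, *Igf2bp2* and *Igf2bp3*, whose proteins bind them, had log2 changes of -0.07, -0.42 and 0.12 between the Runx1 classes, none of which passed.

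The families of *Hmga2* and *Arid3a* were also expressed. The 10 other high mobility group genes summed to 4250.2 and 4035 CPM, with *Hmgb1* (1306 and 905 CPM), *Hmgb2* (1052 and 983 CPM) and *Hmgn2* (673 and 968 CPM) in the lead, and 0 of 10 held the motif CTACCTC in the 3' UTR. The 13 other genes of the ARID family, of which 4 held it, summed to 1192 and 1082 CPM. By mean level over both libraries *Arid1a* (249.9 and 189 CPM), *Arid4b* (180.0 and 117 CPM) and *Kdm5a* (100.1 and 153 CPM) led them. In both lists and both comparisons 0 genes passed by edgeR with or without the block or by DESeq2. Unadjusted p-values under 0.05 without and with the block numbered 0 and 2 of 10 high mobility group genes and 0 and 0 of 12 ARID genes for *Runx1*, and 2 and 3 of 10 and 0 and 2 of 12 for *Mki67*. The medians were -0.01 and 0.21 for *Runx1*, and -0.21 and 0.27 for *Mki67*.

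Genes known to differ between fetal and adult stages of blood and arterial development were read beside them. Of these 9, *Ezh2* (285 and 189 CPM), *Bcl11a* (175 and 109 CPM) and *Mecom* (133 and 128 CPM) led, and *Cebpa*, a myeloid factor, had 0 counts. Of 8 tested between the Runx1 classes 0 passed without the block (2 at an unadjusted p under 0.05, DESeq2 0, median 0.97 against -0.01 for all genes, 6 higher and 2 lower in both libraries), and with it *Bcl11a* rose by a log2 fold change of 1.91 and *Sox17*, an endothelial factor, fell by 2.12 (adjusted p 0.0226 and 0.0162 by edgeR (quasi-likelihood test, adjusted after Benjamini-Hochberg), with ranges over all fits of 0.00643 to 1.00 and 0.00939 to 1.00). The changes were 1.44 and -0.90 with cells paired by depth, where neither passed. Between the Mki67 classes 0 of 8 passed by edgeR or DESeq2, with 0 at an unadjusted p under 0.05 with or without the block and a median of 0.28.

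The *Runx1* order itself went with endothelial and hematopoietic genes when the library was a block. Of 15 endothelial feature genes from the study's methods, 7 fell in Runx1-high cells with the block (*Gja4*, *Nrp1*, *Dll4*, *Epas1*, *Efnb2*, *Hey1* and *Aplnr*), 0 passed without it (11 at an unadjusted p under 0.05, DESeq2 4), and the median was -1.55. *Nrp1*, *Gja4* and *Pecam1* were the most abundant by mean level over both libraries (506 and 651, 193 and 548, and 220.2 and 466 CPM). Of 7 hematopoietic feature genes other than *Runx1*, 3 rose with the block (*Adgrg1*, *Bcl11a* and *Neurl3*), 0 passed without it (2 at an unadjusted p under 0.05, DESeq2 0), and the median was 1.51. *Adgrg1* and *Neurl3* followed *Runx1* in mean level over both libraries, at 248 and 175 and at 249.5 and 114 CPM. *Runx1*, which orders the cells, is itself on the hematopoietic list, and 0 genes of either list passed with cells paired by depth. The changes in that split were still -1.79 for *Gja4*, -2.53 for *Aplnr* and 1.44 for *Bcl11a*, and smaller for others, such as -0.46 for *Nrp1* and 0.88 for *Adgrg1*. As that split also mixes levels of *Runx1*, with up to 386 CPM in its low class of replicate 1 and as little as 2.74 CPM in its high class of replicate 2, the part of depth in the lost calls cannot be told apart. Of 12 proliferation genes, led by *Top2a* (818 and 643 CPM), *Mki67* and *Mcm6* (419 and 315 CPM), 0 passed between the Runx1 classes (1 and 2 at an unadjusted p under 0.05 without and with the block, DESeq2 0), with a median of 0.52. Between the Mki67 classes 0 of 11 passed without the block (4 at an unadjusted p under 0.05, DESeq2 1), with a median of 0.41, and *Top2a* rose with it, as given above. Between those classes 0 of the 8 hematopoietic and 0 of the 15 endothelial feature genes passed by edgeR with or without the block or by DESeq2, with 0 in each list at an unadjusted p under 0.05 without the block and 2 and 0 with it.

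Some of the marker genes differed between the Runx1 classes in the fit with the block, and none of them passed with cells paired by depth. With the block 4 of 8 endothelial, 5 of 7 mesenchymal and 1 of 2 macrophage markers tested fell and 1 of the 7 genes of the sort rose (the other macrophage marker was higher in the high cells of both libraries without passing), while 0 of 3 erythroid, 0 of 2 megakaryocyte, 0 of 2 visceral endoderm and 0 of 2 mesothelial markers passed. Without the block edgeR called 1 mesenchymal marker and 0 others, with 4 endothelial, 5 mesenchymal, 0 macrophage, 2 sort, 1 erythroid, 1 megakaryocyte, 0 visceral endoderm and 1 mesothelial markers at an unadjusted p under 0.05. DESeq2 called 4 mesenchymal markers and 0 others. The mesenchymal markers summed to 66.2 CPM in Runx1-high and 2508 CPM in Runx1-low cells of replicate 1 and to 23.2 and 808 CPM in replicate 2, and all 7 were lower in both, *Col1a1* with a log2 fold change of -5.66 (standard error 0.58, adjusted p 0.0332 by edgeR (quasi-likelihood test, adjusted after Benjamini-Hochberg) without the block, 6.96e-28 to 1.00 over all its fits). Without the 3 collagen cells the change of *Col1a1* was 0.77 (standard error 2.04) and 0 genes passed without the block. As these cells were chosen by their counts of *Col1a1* among other genes, the loss of its change follows from the choice. Leaving out the collagen cells also moved the medians that split the other cells, so their part in the other differences was not measured alone. Of the 8 genes it turned the direction only of *Igf2bp1* between the Runx1 classes, from -0.07 to 0.05. The collagen cells, all Runx1-low, had 418, 508 and 575 CPM of *Igf2bp1*, where the median of the other 84 cells was 212 CPM. Between the Mki67 classes 0 markers of any list passed in any of the fits with or without the block or by DESeq2, with up to 1 gene of a list at an unadjusted p under 0.05.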

How the data were processed

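Per the labels, modified STRT-seq was run on PK44 cells of the E10.0 yolk sac in 2 libraries. The values are counts of molecules per gene and cell: the authors split reads by cell barcode, trimmed them, aligned Read 1 with HISAT2 2.1.0 to mm10, counted uniquely mapped reads with HTSeq, removed duplicates by molecular identifier and removed low-quality cells, without normalizing. Whether counting used strand is not stated. The deposited barcode tables hold no measurement and were not used.

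Levels are CPM of the counts summed over a library. For the tests, counts were summed per library and class, and the 4 sums of a split were compared in edgeR 4.0.16 (TMM, filterByExpr, quasi-likelihood, Benjamini-Hochberg threshold 0.05; R 4.3.3). The standard error is the size of the log2 change over the square root of F. Sums with the same replicate number come from 1 library, so the number pairs them. Deviations of paired sums correlated at 0.197 over 10630 genes (*Runx1*) and 0.178 over 10651 genes (*Mki67*). Alternatives were the library as a block, DESeq2 1.42.0, RLE factors, no filter, cells paired by depth, the 14 highest against the 14 lowest cells, cells with against without a count, thinning to 20000 counts (seed fixed; 1 cell left out), no collagen cells, equal weight per cell, and each library alone. Block fits of the altered splits were added after the data had been seen. On simulated data the fit without the block missed the smaller of the changes put in, most of which the fit with it recovered, and both found nearly all of the larger ones. Both sizes were put into genes above the median level. Even the smaller exceeded in size every log2 change of the 7 genes tested in the median splits without the block. Correlations are Spearman's, within a library (Python 3.11.15, pandas 2.3.3, numpy 2.4.6, scipy 1.17.1, matplotlib 3.10.9).

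The 8 genes and the 9 lists (let-7 machinery, let-7 targets, IGF2BP clients, high mobility group, ARID, stage, proliferation, hematopoietic and endothelial features) were chosen with earlier results of these data known. Named genes are the 8, *Runx1*, *Mki67*, up to 3 genes most like each of the widely detected ones, and of each list those called and the 3 most abundant. *Hmga1* was left out of correlations and missed the filter of the tests.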

Additional observations from a re-analysis of the deposited data

How the results depend on the processing

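The number of genes called depended on the fit. The sums of a split that share a replicate number come from 1 library, and their deviations correlated at 0.197 (*Runx1*) and 0.178 (*Mki67*). With the replicate block 166 genes were called between the Runx1 classes in place of 1, and 4 between the Mki67 classes in place of 0. None was among the 8 genes described, and no direction of theirs turned with the block, while other splits turned several. DESeq2 called 137 and 10 genes, no low-count filter gave 67 and 4, and RLE factors gave 1 and 0. The block fit and DESeq2 shared 75 genes for *Runx1*, out of 166 and out of 137. The cause of these differences was not tested.

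Pairing cells by depth left 0 genes called in both comparisons. The log2 change of *Igf2bp1* and *Igf2bp2* between the Runx1 classes turned to 0.17 and 0.28, and between the Mki67 classes *Lin28a*, *Hmga2*, *Igf2bp1* and *Igf2bp3* turned to 0.58, -0.079, 0.050 and 0.12. With the 14 highest against the 14 lowest cells of each library 0 genes were called in both, and between the Mki67 classes *Lin28a*, *Hmga2* and *Igf2bp2* turned to 0.11, -0.17 and -0.22.

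With cells split into those with and without a count of *Runx1* or *Mki67*, 0 genes were called in both, and the value was 0.011 for Lin28b between Runx1-high and Runx1-low cells (0.069 with the block). *Igf2bp3* (-0.99) and *Col1a1* (4.67) turned for *Runx1*, and *Lin28b* (2.45), *Hmga2* (-0.29), *Igf2bp1* (0.62), *Igf2bp2* (-1.13) and *Igf2bp3* (1.91) for *Mki67*, where only 5 cells of each library were without a count.

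Thinning to 20000 counts, which also redrew the classes, gave 3 and 0 genes called. The value of Lin28b between Runx1-high and Runx1-low cells went from 0.42 to 1.42, and the part of either choice was not tested. *Igf2bp1* (0.39) and *Igf2bp3* (-0.013) turned for *Runx1*, and *Hmga2* (-0.0016) for *Mki67*. Without the collagen cells, and with the other cells split at new medians, 0 genes were called in both, and *Igf2bp1* (0.051) and *Col1a1* (0.77) turned for *Runx1*.

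Fits that join the replicate block with an altered split were chosen after the data had been seen. For *Runx1* they called 0 genes with cells paired by depth, 114 with the 14 highest and lowest cells, 5 with the split by presence of a count, 4 after thinning and 147 without the collagen cells. For *Mki67* the same fits called 0, 25, 5, 6 and 1. In the Runx1 fits the values that turned were *Igf2bp1* (0.17), *Igf2bp2* (0.29) and *Col1a1* (0.032) with cells paired by depth, *Igf2bp3* (-0.98), *Arid3a* (0.11) and *Col1a1* (4.996) with the split by presence, *Igf2bp1* (0.40), *Igf2bp3* (-0.033) and *Arid3a* (0.015) after thinning, and *Igf2bp1* (0.053) and *Col1a1* (0.95) without the collagen cells. In the Mki67 fits they were *Igf2bp1* (0.067) and *Igf2bp3* (0.12) with cells paired by depth, *Igf2bp2* (-0.32) with the 14 highest and lowest cells, and *Lin28b* (2.38), *Hmga2* (-0.14), *Igf2bp1* (0.62), *Igf2bp2* (-1.11) and *Igf2bp3* (2.45) with the split by presence.

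With equal weight for every cell, values included 1.04 for Lin28b between Runx1-high and Runx1-low cells, 0.46 for Igf2bp1 between Runx1-high and Runx1-low cells, -0.14 for Igf2bp3 between Runx1-high and Runx1-low cells, -0.014 for Hmga2 between Mki67-high and Mki67-low cells and 0.63 for Igf2bp2 between Mki67-high and Mki67-low cells.

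For member levels per library, the 8 genes summed to a mean of 1498 CPM, and from 1476 to 1521 CPM over cell weighting, thinning and leaving out the collagen cells. With either library left out it ran from 1197 to 1799 CPM. The median rho over the pairs and libraries was 0.069, and from 0.0040 to 0.098 over the alternatives. Of 40 alternative shares of cells 26 moved, all of them from asking for more counts or from thinning and none from leaving out the collagen cells.

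There are 2 libraries and 1 condition, so no other stage, tissue or gate was compared, and the number of embryos is not given. The classes divide a continuous level, and depth differs between them. *Hmga1* cannot be read here, and *Igf2bp3* and *Hmga2* overlap genes of the other strand. RNA was measured, and proteins and let-7 were not.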
